A study of Macaca mulatta with 10 samples.

Results

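Of the 26813 loci counted in juvenile rhesus macaque testis, 6923 were unannotated single-exon loci: they carried no gene name in the count table, and every transcript assembled for them had a single exon. They were chosen from the table's name column and the assembled transcript models. Those models come from these same libraries, and loci with low counts were not kept, so membership is not independent of the counts. The other loci were 18652 named loci and 1238 unannotated loci with spliced models. All animals were wild-type rhesus monkeys (Macaca mulatta), and the right testis of each gave a stranded library of total RNA. Vehicle was infused in 3 animals (TP07, TP09 and TP11, aged 24, 14 and 15 months). A pulsatile infusion of the gonadotropins FSH and LH ran for 48 h in 3 animals (TP08, TP10 and TP12, aged 22, 14 and 15 months) and for 96 h in 4 animals (TP15, TP16, TP17 and TP18, all 14 months). Each animal is 1 replicate, and whole testis was sampled, so fewer cells of a type and less RNA per cell cannot be told apart.

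Total RNA libraries hold more than spliced messenger RNA. RNA polymerase II often starts in both directions at a promoter, leaving short-lived unspliced RNA upstream of the gene on the opposite strand, and it often runs past the end of a gene before transcription stops. Introns of nascent RNA, long noncoding RNAs and structural RNAs without a poly(A) tail also appear as single-exon models. An assembled locus is therefore a stretch of genome with reads on 1 strand, and several neighbouring loci can be pieces of 1 longer transcript. FSH acts on Sertoli cells and LH on Leydig cells, both mainly through cyclic AMP. Leydig cells respond by making testosterone, and the seminiferous tubules hold the spermatogonia that begin to differentiate.

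The libraries held 21824233 to 30375928 counts, so a count of 0 allowed a level of up to 0.0988 to 0.137 CPM (a locus's counts scaled to the library size), which covers counting error only. Of 3 measured Leydig cell markers (STAR, CYP17A1 and INSL3; CYP11A1 was not in the table under that symbol), 3 were higher at both times, with summed levels of 129 to 267 CPM in vehicle, 1416 to 1780 CPM at 48 h and 1074 to 1374 CPM at 96 h. Germ cell markers (DDX4, DAZL, GFRA1 and MAEL) summed to 227 to 280 CPM in vehicle, 124 to 158 CPM at 48 h and 116 to 167 CPM at 96 h, with 2 of 4 lower at 48 h and 4 of 4 at 96 h. Sertoli markers (SOX9, AMH, FSHR and WT1) ranged from 869 to 1411 CPM over all animals, with 1 of 4 higher at 96 h, and peritubular markers (ACTA2, MYH11 and TAGLN) from 316 to 1050 CPM, with 2 of 3 higher at both times. Macrophage, endothelial and blood markers had no member called, and the blood markers HBB and ALAS2 ranged from 20.1 to 115 CPM in vehicle and 48 h animals and from 88.1 to 290.2 CPM at 96 h. Of 2 epididymal markers, LCN6 and CRISP1, 0 were in the table under those symbols. The part of these shifts in the results below was not tested. The counter's strand setting is not given in the sources used here, so for antisense loci reads of the named gene could be included.

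Of the 6923 loci, 3487 lay on the plus strand and 3436 on the minus strand. Their length had a median of 3266 bases and ranged from 69 to 89723 bases, and 88 were longer than 20 kb. Of the 6923, 562 lay on scaffolds not placed on a chromosome, 269 on X and 38 on Y. Their levels were low: the median over loci of the mean level was 1.47 CPM, against 18.8 CPM for named loci, and 310 loci (4.48%) reached 10 CPM. All 6923 passed the filter on low counts with all animals in the fit, and 6728 passed it with the vehicle and 48 h animals alone. They often stood in rows: 3196 had a neighbour of the same kind within 5 kb on the same strand, and 2656 lay in 260 tracts of 5 or more with gaps of at most 50 kb.

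Position was read against the spans of named loci. Inside a named locus on the same strand lay 1797 (26.0%), all in introns of the assembled model and none touching its exons. These 1797 lay in 547 named loci, and the named locus holding most of them, around LOC711183 and LOC711425, contained 94. Antisense to a named locus lay 240 (3.47%). Of these, 161 covered the named locus's start, 40 its end, and 16 overlapped only an intron. Between named loci lay 4886 (70.6%): 665 began within 5 kb after a named end on the same strand, 655 within 5 kb of a named start on the opposite strand (divergent), 206 lay within 5 kb before a named start on the same strand, 112 faced a named end within 5 kb on the opposite strand (convergent), and 3248 were farther away. These classes depend on the assembled models around them. Against annotated transcripts alone, none of the 6923 overlapped a transcript on its own strand. That was fixed by the choice of loci, since all 6923 carry the assembler's code for models outside annotated transcripts. Of the 1797 inside loci, 1388 lay over 5 kb from any annotated transcript. Of the 240 antisense loci, 65 still overlapped an annotated transcript, while 135 became divergent neighbours of an annotated start.

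Together these loci took 4.66% ± 0.58 (SD, n = 3) of counts in vehicle, 3.80% ± 0.54 (n = 3) at 48 h and 4.36% ± 0.45 (n = 4) at 96 h. The groups overlapped: vehicle animals ranged from 4.08% to 5.24%, 48 h animals from 3.37% to 4.40% and 96 h animals from 3.85% to 4.83%. The share in inside loci was 0.605% ± 0.090 in vehicle, 0.420% ± 0.065 at 48 h and 0.544% ± 0.053 at 96 h. Divergent loci took a small share whose groups did not overlap between vehicle and gonadotropin: 0.192% to 0.214% in vehicle, 0.155% to 0.178% at 48 h and 0.144% to 0.168% at 96 h. Convergent loci, with a smaller share, did not overlap either: 0.0251% to 0.0280% in vehicle, 0.0187% to 0.0225% at 48 h and 0.0198% to 0.0224% at 96 h. Without the 10 most abundant loci, the share of all was 2.41% ± 0.19 in vehicle, 1.80% ± 0.25 at 48 h and 2.09% ± 0.18 at 96 h.

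**Figure D1:**
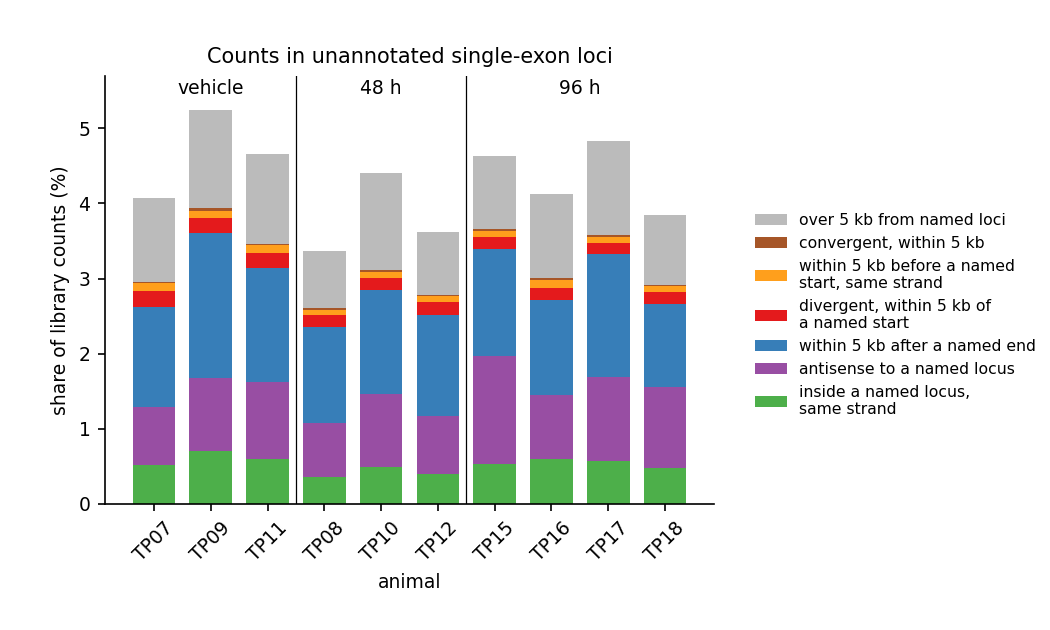
Share of each library's counts (%, vertical axis) in unannotated single-exon loci for each of the 10 animals, stacked by position against named loci. Bars reach 3.37% to 5.24%, with the lowest in TP08 at 48 h and the highest in TP09 of the vehicle group.

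A pair of loci supplied much of this share. XLOC_050821 (chr15:48602510-48603149, plus strand, rheMac8), a 640-base locus 2496 bases past the end of ARHGEF39, reached 9280, 14150 and 10968 CPM in vehicle, 10385, 10276 and 10350 CPM at 48 h and 10880, 9292, 13830 and 8047 CPM at 96 h. Its groups overlapped, and neither change passed the test (log2 fold change -0.15 ± 0.20 (SE) at 48 h and -0.13 ± 0.19 at 96 h; adjusted p = 0.672 and 0.673). ARHGEF39 rose by 1.37 at 96 h (adjusted p = 0.00142), and the ratio of the locus to it fell by 1.51 ± 0.25 (limma, adjusted p = 0.00366). XLOC_028478 (chr7:81566598-81567168, minus strand), 571 bases long, covers the assembled start of PARP2 and lies 6 bases from its annotated start, on the opposite strand. It stood at 6657, 8606 and 9039 CPM in vehicle, 6683, 9294 and 7026 CPM at 48 h and 14829, 7985, 11813 and 10356 CPM at 96 h, with a log2 fold change at 96 h of 0.47 ± 0.21 (adjusted p = 0.134). Per kilobase these were 16790 and 16162 CPM. In the human genome the RNA subunit of RNase MRP, RMRP, lies beside ARHGEF39 and CCDC107, and the RNA subunit of RNase P, RPPH1, starts back to back with PARP2; whether the macaque loci are those RNAs was not tested. The next in abundance was XLOC_048496 (chr14:1952012-1952721, minus strand), 710 bases long and 150 bases past the end of IGF2, the gene of a growth factor. It ranged from 130 CPM in TP08 to 713 CPM in TP15, and its log2 fold changes of -0.49 ± 0.54 at 48 h and 0.36 ± 0.51 at 96 h did not pass (adjusted p = 0.597 and 0.648). IGF2 itself moved with it at -0.43 and 0.56, neither called.

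Of the most abundant loci inside named loci, XLOC_008220 and XLOC_008210 lay in the LOC106996791 locus on chromosome 2 at 40.4 to 119 CPM and 35.4 to 93.8 CPM, and XLOC_050011 lay in ARHGAP32 at 27.7 to 69.9 CPM. XLOC_008152, 79531 bases long on chromosome 2 (chr2:38332727-38412257, minus strand), stood at 138 to 438 CPM. Among antisense loci, XLOC_005043 ran across the end of SERPINC1, the antithrombin gene, at 25.7 to 40.2 CPM, and XLOC_020859 covered the start of the deubiquitinase gene USP38 at 14.5 to 23.9 CPM. None of these 6 was called by edgeR in any comparison, though XLOC_020859 fell against USP38 by 0.46 ± 0.14 at 96 h (limma on the ratio, adjusted p = 0.0372).

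The infusion was compared with vehicle at each time with edgeR's quasi-likelihood test, with p-values adjusted over all 26813 loci and a call at an adjusted p below 0.05. At 48 h, 53 of the 6923 loci were called higher and 304 lower (0.766% and 4.39%), against 8.53% higher and 3.67% lower of all loci in the table. The median log2 fold change was -0.35 over the 6923 and -0.07 over all loci. At 96 h, 145 were higher and 385 lower (2.09% and 5.56%), against 10.6% and 6.89% of all loci, with medians of -0.17 and -0.01. Between 48 and 96 h, 19 were higher at 96 h and 1 lower, against 0.817% and 0.25% of all loci (1.07% in either direction), with medians of 0.23 and 0.02. Both times share the 3 vehicle animals. The share of falls lay near that of the whole table and the share of rises below it. The 304 falls at 48 h became 77 with TP08 left out, 118 with TP12, 135 with TP11 and 147 with TP09, and 44 without both animals over 20 months (TP07 and TP08). The 53 rises became 29 with TP09 left out and 31 with TP08, and 9 without both older animals. The 385 falls at 96 h became 137 with TP07 left out, 159 with TP11, 192 with TP17 and 217 with TP09. The 145 rises became 53 with TP07 left out, 60 with TP11, 81 with TP17 and 93 with TP16. When neither older animal entered the fit, 111 falls and 44 rises were called at 96 h. Between 48 and 96 h, the 19 rises became 0 with TP08 or TP17 left out, 1 with TP10, 3 with TP12, 8 with TP18 and 12 with TP09 or TP11.

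**Figure D2:**
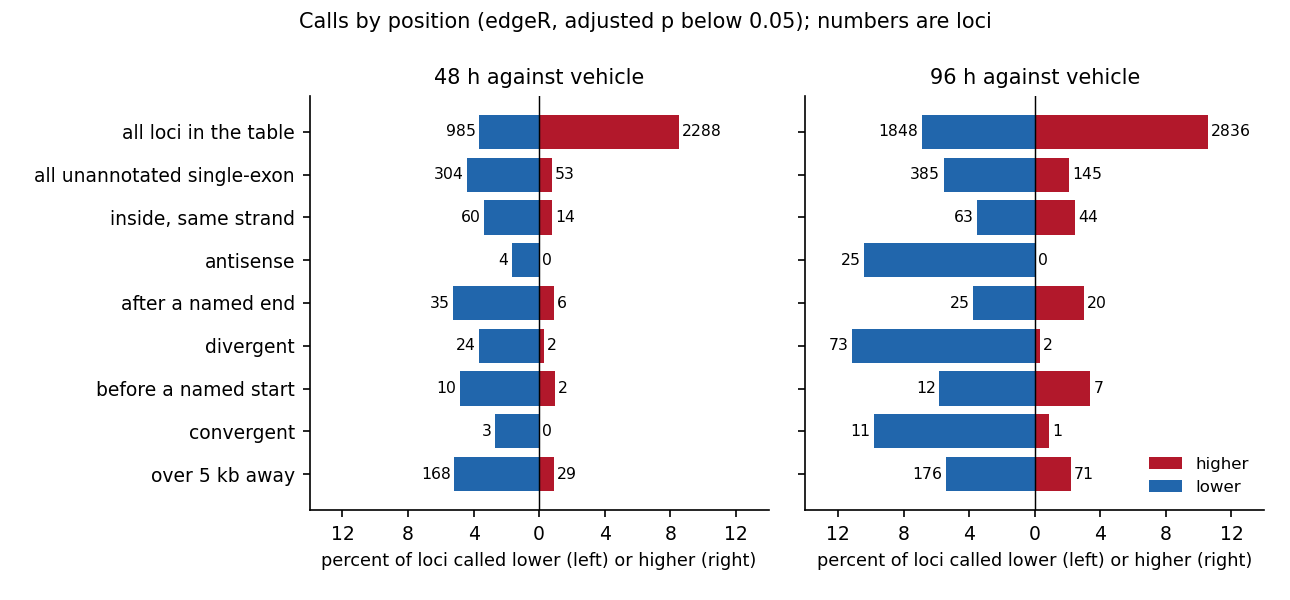
Percent of loci called lower (left of 0) or higher (right of 0) by edgeR at 48 h and 96 h against vehicle, for all 26813 loci, for the 6923 unannotated single-exon loci and for their positions. The numbers at the bars are loci, and at 96 h divergent and antisense loci show 73 and 25 falls beside 2 and 0 rises.

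Falls at 96 h were counted by position. Of the 655 divergent loci, 24 were lower (3.66%) and 2 higher at 48 h, and 73 were lower (11.1%) and 2 higher at 96 h. Of all loci in the table, 3.67% were lower and 8.53% higher at 48 h, and 6.89% and 10.6% at 96 h. The share of divergent falls at 48 h was thus near that of the whole table. Of the 240 antisense loci, most of which cover a named start, 4 were lower (1.67%) and 0 higher at 48 h. At 96 h, 25 were lower (10.4%) and 0 higher. At an unadjusted p below 0.05, 61 of the 240 differed at 96 h, and DESeq2 called 30 lower and 1 higher. The median log2 fold change at 96 h was -0.42 for both classes, under TMM, and -0.56 and -0.57 with upper-quartile scaling, which also moved the median of all loci to -0.16. Inside loci had 63 falls and 44 rises at 96 h with a median of -0.04, and loci after a named end had 25 falls and 20 rises with a median of -0.08. Of the 112 convergent loci, 11 were lower (9.82%) and 1 higher at 96 h, with a median of -0.26. Loci before a named start had 12 falls and 7 rises, and those over 5 kb away 176 and 71. Falls among divergent loci at 96 h numbered 10 with TP07 left out, 14 with TP11, 23 with TP17, 44 with TP15 and 45 with TP09. They numbered 21 with age as a covariate, 25 without TP10 and TP17 and 7 without both older animals. The 25 antisense falls became 4 with TP07 left out, 9 with TP11, 11 with TP17, 15 with TP09, 9 with age, 12 without TP10 and TP17 and 3 without both older animals. At 48 h the 24 divergent falls became 3 with TP08 left out, 5 with TP07, 6 with TP11, 7 with TP12, 8 with TP09 and 9 with TP10; the 4 antisense falls became 0 with TP08 left out and 1 with TP09 or TP11, and without both older animals neither class had a fall. With TP09 left out, inside loci had 21 falls and 36 rises at 96 h, and with TP16 left out 92 and 25. Unannotated loci with spliced models had 10.5% falls at 96 h (130 of 1238), and differences between positions were not tested.

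Each locus was then set against its own named locus, as log2 of the ratio of their counts, and tested with limma over all pairs of that kind in the table. For 666 pairs of a single-exon locus and a divergent named start within 5 kb, the median ratio was -4.69, -4.89 and -4.77 in vehicle, -5.15, -5.16 and -4.98 at 48 h and -5.27, -5.21, -5.43 and -5.23 at 96 h (log2). The group means were -4.78 ± 0.10 (SD, n = 3), -5.10 ± 0.10 (n = 3) and -5.28 ± 0.10 (n = 4), and the 3 groups did not overlap. In the 252 pairs with a mean count of at least 50 in both loci, vehicle (-4.27 to -4.17) still stood apart. There the 48 h animals (-4.58 to -4.35) overlapped the 96 h animals (-4.76 to -4.55). Of the 2656 divergent pairs in the table, 1420 are the same loci entered in both orders, which mirrors their ratios and balances their rises and falls, so the other pairs give no control level for the 666. Among the 666 pairs, 74 were lower and 6 higher at 48 h, against 8.7% and 6.14% of all 2656 divergent pairs, and 199 were lower and 7 higher at 96 h, against 19.6% and 12.2%. With a mean count of at least 50 in both loci, 82 of 252 pairs were lower and 3 higher at 96 h. With each pair entered once, 75 of the 666 were lower and 6 higher at 48 h, and 200 lower and 7 higher at 96 h. The 74 at 48 h became 20 with TP07 left out, 23 with TP08, 29 with TP09, 32 with TP10, 37 with TP11 and 0 without both older animals, where 0 were higher as well; 172 of the 666 had an unadjusted p below 0.05 at 48 h with all animals. The 199 at 96 h became 77 with TP07 left out, 115 with TP11 and 127 with TP17. They became 123 with age as a covariate, 117 without TP10 and TP17 and 66 without both older animals, with 1 to 8 rises at 96 h in every alternative run. This set of pairs was added after results had been seen.

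The examples are those with the smallest p in that test at 96 h among loci whose mean log2 CPM was 1 or more, chosen after results were known. XLOC_007236 (chr2:170568666-170579961, plus strand) starts 536 bases from NUDT16, a nucleotide hydrolase gene. It stood at 14.0, 10.9 and 10.8 CPM in vehicle, 5.94, 7.5 and 7.96 CPM at 48 h and 5.95, 5.46, 5.31 and 6.31 CPM at 96 h. Vehicle lay above every treated animal, with log2 fold changes of -0.74 ± 0.18 and -1.04 ± 0.17 (adjusted p = 0.0242 and 0.00297), while NUDT16 was at -0.05 at 96 h (adjusted p = 0.741). XLOC_017582 (chr4:140269634-140275230, minus strand), 29 bases from ECHDC1, fell by 0.68 ± 0.17 on the log2 scale at 96 h (adjusted p = 0.0222), from 6.25 ± 0.25 to 3.89 ± 0.51 CPM, and ECHDC1 was at 0.31 (adjusted p = 0.0701). XLOC_034197 (chr9:17355930-17358508, minus strand) lies 551 bases from VIM, the gene of the intermediate filament vimentin. It went from 2.66 ± 0.06 to 1.72 ± 0.36 CPM without a call of its own (log2 fold change -0.63 ± 0.23, adjusted p = 0.0772), VIM rose by 0.77 (adjusted p = 0.0109), and their ratio fell by 1.38 (limma, adjusted p = 0.00137).

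Antisense loci with the largest called falls gave the following values. XLOC_042233 (chr12:95032860-95036455, plus strand), across the assembled start of the transcription factor gene IKZF2, stood at 6.61, 3.71 and 3.94 CPM in vehicle, 2.56, 2.89 and 2.36 CPM at 48 h and 1.60, 2.06, 1.32 and 1.84 CPM at 96 h. It fell by 1.47 ± 0.26 at 96 h (adjusted p = 0.00408), and IKZF2 also fell, by 0.76 (adjusted p = 0.0109). XLOC_004975 (chr1:184986348-184988900, minus strand), across the assembled start of the glutamine synthetase gene GLUL, fell from 1.87 ± 0.54 to 0.806 ± 0.097 CPM at 48 h and 0.765 ± 0.175 CPM at 96 h (log2 -1.21 ± 0.31 and -1.27 ± 0.29, adjusted p = 0.0266 and 0.0137), with GLUL at -0.07 and 0.09. XLOC_018094 (chr5:8631420-8637069, plus strand), across the end of the peroxisomal oxidase gene ACOX3, fell by 1.60 ± 0.36 at 96 h (adjusted p = 0.0141), from 2.14 ± 0.60 to 0.704 ± 0.138 CPM, and XLOC_032648, across the end of FRMD4A, fell by 1.18 ± 0.33 at 48 h (adjusted p = 0.0404). Over 257 antisense pairs, 9 were lower and 2 higher against the named locus at 48 h, beside 6.35% and 6.21% of all 5430 overlapping opposite-strand pairs (4516 of them the same loci in both orders), and 35 were lower and 2 higher at 96 h, beside 11.2% and 10.9%. Between 48 and 96 h, 0 were lower and 1 higher, beside 0.921% and 0.994%. The 35 and 2 together became 14 with TP07 left out, 17 with TP11, 21 with TP17, 24 with TP09 and 12 without both older animals.

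Among the most abundant divergent loci, XLOC_023928 (chr6:37248107-37255604, minus strand), 44 bases from the cohesin loader gene NIPBL, stood at 45.7 ± 1.2 CPM in vehicle and 55.4 ± 4.3 CPM at 96 h (log2 0.28 ± 0.09, adjusted p = 0.0495), a call lost in 16 of its alternatives. XLOC_040048, 763 bases from the chromatin remodeller gene ARID2, stood at 46.7 ± 0.4 CPM in vehicle and 42.4 ± 5.1 CPM at 96 h, without a call. XLOC_016322 (chr4:26829925-26830514, minus strand), 590 bases long and 842 bases from the histone gene HIST1H2BH, stood at 7.33, 16.5 and 19.1 CPM in vehicle, 19.9, 33.7 and 45.1 CPM at 48 h and 116, 89.6, 120 and 98.6 CPM at 96 h. Every 96 h animal was above every other animal, and the rise of 2.89 ± 0.37 at 96 h (adjusted p = 0.00127) went with a rise of HIST1H2BH by 2.48 (adjusted p = 0.000576).

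**Figure D3:**
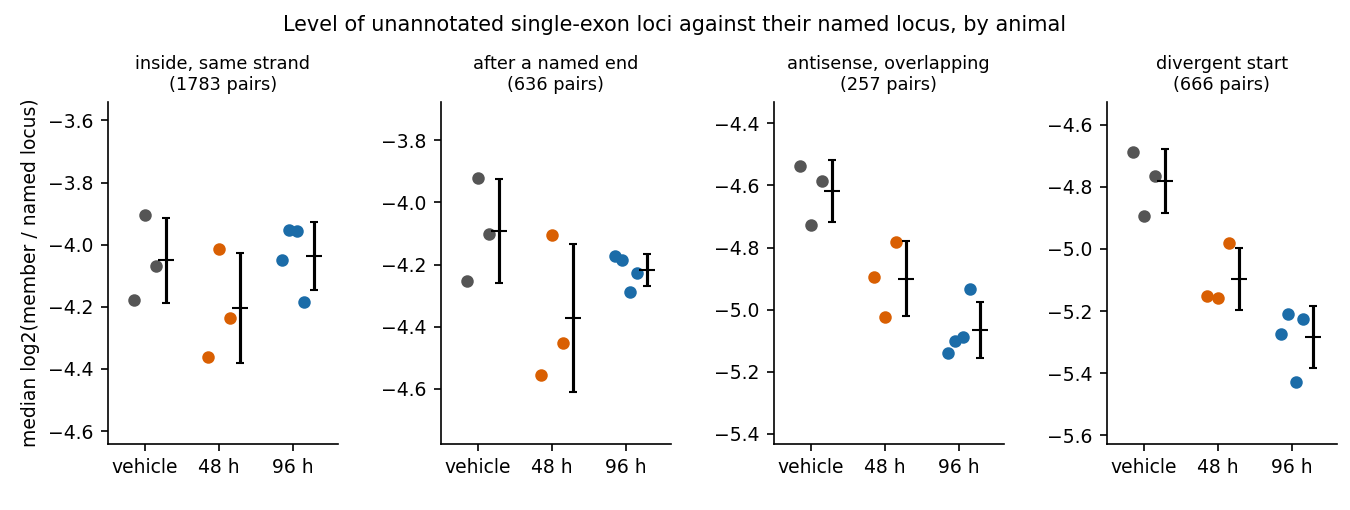
Median log2 ratio of a single-exon locus to its named locus (vertical axis) in each animal, for loci inside a named locus, after a named end, overlapping antisense, and divergent from a named start; each point is an animal, and the bar is the group mean with its SD. The divergent panel falls from -4.78 ± 0.10 in vehicle to -5.28 ± 0.10 at 96 h, and the panel of inside loci stays between -4.36 and -3.90.

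Loci inside a named locus were set against it. Across 1783 inside loci in 536 named loci, the log2 fold change of the locus and of its host had a Spearman correlation of 0.71 at 48 h and 0.68 at 96 h. It was 0.58 and 0.56 for 633 loci after a named end, 0.18 and 0.16 for 621 divergent loci, and 0.16 and 0.20 for 238 antisense loci. For 166 loci before a named start it was 0.67 and 0.48, and for 83 convergent loci -0.26 and -0.05. The 1903 loci over 5 kb from named loci had 0.48 and 0.46 with the nearest named locus, so a correlation was not particular to inside loci. These are descriptions: all points share libraries, inside loci share hosts, and low counts weaken each value. Of the inside loci that fell, 29 of 60 at 48 h and 25 of 63 at 96 h had a host that fell, and 0 and 2 a host that rose. Of the divergent loci that fell with a measured partner, 4 of 20 at 48 h and 9 of 71 at 96 h had a partner that fell, and 2 and 12 a partner that rose. In the ratio test, 10 inside loci were lower and 5 higher than their host at 48 h, against 0.531% and 0.413% of all 3390 same-strand pairs (1198 of them the same loci in both orders), and 15 were lower and 11 higher at 96 h, against 0.855% and 1% of pairs. Between 48 and 96 h limma called 0 of the 1783, with 262 at an unadjusted p below 0.05, and voom weights called 0 as well. The 15 calls at 48 h became 2 with TP08 left out and 4 or 5 with TP12, TP07, TP09 or TP11, and the 26 at 96 h became 10 with TP11 left out, 13 with TP07 or TP17 and 16 with TP09. Of 636 pairs after a named end, 21 were lower and 1 higher at 48 h, against 4.59% and 3.89% of all such pairs, and 23 were lower and 4 higher at 96 h, against 7.54% and 6.65%. The 21 became 2 with TP08 or TP09 left out, 4 with TP12, 5 with TP11, 9 with TP07 and 0 without both older animals. The 23 became 4 with TP07 left out, 8 with TP17, 9 with TP09 or TP11, 12 with TP15 or with age as a covariate, 5 without TP10 and TP17 and 3 without both older animals.

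Among the largest differences from the host was XLOC_048723 (chr14:12411185-12414836, minus strand), inside the assembled locus and 179 bases before the annotated start of FADS2, a fatty acid desaturase gene. It stood at 2.08, 2.79 and 2.75 CPM in vehicle, 1.21, 2.06 and 1.52 CPM at 48 h and 4.36, 1.34, 2.28 and 1.84 CPM at 96 h, while FADS2 rose by 1.74 and 1.65, so the ratio fell by 2.43 ± 0.27 and 1.82 ± 0.25 (limma, adjusted p = 0.00117 and 0.00392). XLOC_025526, in the WDR76 locus on chromosome 7 and 252 bases from the start of MFAP1, went from 1.28 ± 0.17 to 0.720 ± 0.150 CPM at 96 h as the WDR76 locus rose by 1.19, a ratio change of -2 ± 0.28 (adjusted p = 0.00392). XLOC_032715 (chr9:20074012-20079111, plus strand), in an assembled locus that joins PLXDC2 and MALRD1, fell from 4.36, 6.19 and 2.16 CPM in vehicle to 0.202, 0.397 and 0.291 CPM at 48 h and 1.26, 0.543, 0.810 and 0.627 CPM at 96 h (log2 -3.82 ± 0.48 and -2.39 ± 0.40, adjusted p = 0.00109 and 0.00316). Its host fell by 0.82 and 0.51. XLOC_021181, in the MARCH1 locus on chromosome 5, a ubiquitin ligase gene, fell by 2.03 ± 0.39 at 96 h (adjusted p = 0.0062) with its host at -0.09.

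Of the 53 rises at 48 h, 18 stood in 1 tract of chromosome 4 and 8 in its neighbour. On the minus strand, inside and upstream of PDE10A, a phosphodiesterase that degrades cyclic AMP and cyclic GMP, lay 2 tracts (chr4:166796426-167045724 and chr4:167218678-167325141). The first, of 24 loci, summed to 13.4, 11.7 and 11.4 CPM in vehicle, 114, 57.4 and 69.5 CPM at 48 h and 33.5, 149, 62.6 and 41.5 CPM at 96 h. The second tract, of 8 loci, was not nearest PDE10A: its nearest named locus was that of LOC106998192, LOC106998193 and LOC106998194. It summed to 8.38 ± 1.16 CPM in vehicle, 60.4 ± 18.6 CPM at 48 h and 61.3 ± 38.6 CPM at 96 h. In both, every treated animal was above every vehicle animal. Of the 24, 18 were higher at 48 h and 17 at 96 h, with median log2 fold changes of 2.87 and 2.85. All 8 of the second tract were higher at both times, and all 8 were called at both times with each animal in turn left out, but 5 at 48 h and 7 at 96 h without both older animals. The 18 became 10 with TP08, TP09 or TP11 left out, 12 with TP07, and 1 without both older animals, and the 17 became 9 with TP11 left out and 9 without both older animals. XLOC_017866 (chr4:166985599-166994076) rose from 0.479 ± 0.104 to 5.47 ± 2.30 CPM at 48 h (log2 3.49 ± 0.69, adjusted p = 0.00993) and XLOC_017887 (chr4:167320872-167325141) from 0.819 ± 0.053 to 6.98 ± 2.09 CPM (log2 3.08 ± 0.41, adjusted p = 0.00128). The PDE10A locus itself was at 27.7 CPM in vehicle and 43.6 CPM at 48 h, without a call (log2 0.65, adjusted p = 0.175). XLOC_017837 and XLOC_017850, inside the assembled PDE10A locus, rose against it by 2.38 ± 0.45 and 2.49 ± 0.42 at 48 h (limma on the ratio, adjusted p = 0.0302 and 0.0185).

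Near genes of Leydig cell steroid synthesis, the list of 16 genes (14 measured) had 0 loci inside or antisense and 5 within 5 kb, of which 2 were higher at 48 h and 3 at 96 h, with 0 lower. Over all loci in the table, 8.53% were higher at 48 h and 10.6% at 96 h. Among single-exon loci after a named end the shares were 0.902% and 3.01%. A difference from these shares was not tested. XLOC_048103 (chr14:103368983-103375011, plus strand), 3299 bases past the end of FDX1, whose ferredoxin passes electrons to the side-chain cleavage enzyme, stood at 1.55, 2.04 and 2.2 CPM in vehicle, 7.05, 6.21 and 5.99 CPM at 48 h and 4.31, 8, 6.43 and 4.55 CPM at 96 h. It rose by 1.73 ± 0.27 and 1.59 ± 0.26 (adjusted p = 0.00305 at both times), and FDX1 by 1.41 and 1.14. Beyond it, XLOC_048104 (chr14:103375068-103380659), 9384 bases past FDX1, had the largest rise at 48 h among called loci with a mean level of at least 1 CPM. It held 7 counts in all 3 vehicle libraries and 181 at 48 h, a ratio of 23.9 per total count (exact 95% interval 11.4 to 60.3, counting error only). Its levels were 0.0991, 0.120 and 0.0323 CPM in vehicle, 2.90, 1.70 and 1.55 CPM at 48 h and 0.823, 2.93, 1.62 and 0.666 CPM at 96 h, with log2 fold changes of 4.57 ± 0.70 and 4.14 ± 0.69 (adjusted p = 0.00258 and 0.00317). XLOC_053087, 183 bases past HSD17B3, which makes testosterone, rose by 1.55 ± 0.41 and 1.62 ± 0.39 (adjusted p = 0.0302 and 0.0182). XLOC_059745, 3017 bases past the cytochrome b5 gene CYB5A, rose at 96 h by 1.77 ± 0.48 (adjusted p = 0.0295). The divergent neighbour of the same gene, XLOC_058818, stood at 2.12 ± 0.05 CPM in vehicle and 1.08 ± 0.41 CPM at 96 h (adjusted p = 0.0681), and XLOC_033699, facing the end of CYP17A1, was at -0.82 ± 0.34 at 48 h (adjusted p = 0.148) while CYP17A1 rose by 3.49.

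Of the 3 loci within 5 kb of the 23 cell cycle genes, 1 was higher at 48 h and 2 at 96 h. The shares higher over all loci in the table were 8.53% and 10.6%, and a difference from them was not tested. XLOC_034799 (chr9:71937669-71940101, minus strand), 65 bases past CDK1, the mitotic kinase gene, stood at 0.297, 0.279 and 0.323 CPM in vehicle, 0.270, 0.325 and 0.518 CPM at 48 h and 1.16, 1.05, 1.67 and 1.21 CPM at 96 h. Only the 96 h animals were high, by 2.06 ± 0.36 over vehicle and 1.76 ± 0.35 over 48 h (adjusted p = 0.00399 and 0.0403), and CDK1 was higher by 2.33 and 1.64. XLOC_044265, 2133 bases past the ribonucleotide reductase gene RRM2, rose by 1.62 ± 0.47 at 48 h and 2.16 ± 0.45 at 96 h (adjusted p = 0.0466 and 0.0101). For cholesterol synthesis, 1 locus overlapped and 4 lay within 5 kb of 17 genes, with 0 called. XLOC_014113 and XLOC_012035, divergent from INSIG1 and LSS, were at -0.18 ± 0.23 and -0.43 ± 0.28 at 48 h, while INSIG1 and LSS rose by 0.71 and 0.75. XLOC_049905, across the start of SC5D, was at 0.28 ± 0.37 while SC5D rose by 0.68. The Sertoli list had 2 loci and the insulin-like growth factor list 3, with 0 called. XLOC_042904, before the annotated start of the inhibin subunit gene INHBB, stood at 3.36 ± 0.58, 5.40 ± 1.13 and 2.99 ± 0.40 CPM (adjusted p = 0.0794 at 48 h), and XLOC_040198, across the start of IGFBP6, at 1.76 ± 1.18, 0.521 ± 0.278 and 0.868 ± 0.537 CPM (adjusted p = 0.104 at 48 h). Against IGFBP6 itself it fell by 2.08 ± 0.50 at 48 h and 1.84 ± 0.47 at 96 h (limma on the ratio, adjusted p = 0.0262 and 0.0201). Where edgeR called 0 in these 3 lists, at an unadjusted p below 0.05 it had 0 of 5 cholesterol, 1 of 2 Sertoli and 2 of 3 growth factor loci at 48 h, and 1, 0 and 1 at 96 h. DESeq2 called 0, 1 and 0 of them at 48 h and 1, 0 and 1 at 96 h. No locus overlapped or lay within 5 kb of genes on the spermatogonial, germ cell, peritubular, macrophage, endothelial or blood lists.

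Further rises, and calls among loci with an assigned symbol, are named here after their values were seen. XLOC_014524 (chr4:26688486-26689430, plus strand), 4086 bases past HFE, carries the symbol HIST4H4 in the authors' deposited table of assigned symbols. It stood at 77.2, 96.6 and 85.5 CPM in vehicle, 77.3, 77.7 and 103 CPM at 48 h and 158, 135, 166 and 129 CPM at 96 h. Each 96 h animal was above every other animal, and the differences were 0.77 ± 0.13 from vehicle and 0.77 ± 0.13 from 48 h (adjusted p = 0.00422 and 0.0271). XLOC_004239 (chr1:121693566-121702453, minus strand), 35761 bases before HFE2, went from 13.6 ± 3.8 and 17 ± 5.9 CPM to 55.6 ± 17.1 CPM (log2 2.03 ± 0.33 over vehicle, adjusted p = 0.00381). XLOC_014657 (chr4:29432816-29433309, plus strand), 17983 bases from ZNF311, rose earlier, from 44.0 ± 13 CPM in vehicle to 115 ± 27 and 134 ± 41 CPM (log2 1.39 ± 0.30 and 1.60 ± 0.29, adjusted p = 0.017 and 0.00676). In all, 33 of the 6923 loci carry a symbol in that deposited table. Of the 33, XLOC_006548, assigned PRKAR2A, a regulatory subunit of protein kinase A, lay 177 bases past the end of the locus of LOC106996922 and LOC708981. It was at 0.46 and 0.44 (adjusted p = 0.018 and 0.0158). XLOC_058668, assigned the survival gene BCL2, lay 85002 bases from the BCL2 locus on the opposite strand. It was at 0.28 and 0.43 (adjusted p = 0.14 and 0.023). XLOC_033640 (MARVELD1) and XLOC_048340 (CCDC15) were also higher at 96 h, by 0.45 and 1.06 (adjusted p = 0.0191 and 0.0194). Others of the 33 were called lower. XLOC_008452 (MTMR14) and XLOC_064934 (IL1RAPL1) were at -0.97 and -1.01 at 48 h (adjusted p = 0.0347 and 0.0309). XLOC_007206 (AMOTL2) went from 2.208 CPM in vehicle to 1.105 CPM at 96 h (adjusted p = 0.0273). Whether these loci are parts of the assigned genes was not tested.

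Counting a lone locus as a tract, the 304 falls at 48 h lay in 181 tracts and the 385 at 96 h in 292. All 6923 loci form 3503 such tracts, 2543 of them of 1 locus. The tract holding most falls had 22 at each time. On chromosome 8 (chr8:82582023-82864075, plus strand), nearest LOC100426179, all 22 loci of a tract fell at both times. The tract summed to 127, 315 and 232 CPM in vehicle, 80.2, 64.5 and 61.8 CPM at 48 h and 68.8, 77.2, 50.4 and 61.6 CPM at 96 h. Every vehicle animal was above every treated animal, and the median log2 fold changes were -1.76 and -1.81. With each animal left out in turn, at least 17 of 22 fell at 48 h and 19 at 96 h. On X (chrX:98441918-98961982, plus strand), nearest LOC700173, 16 of 19 loci fell at 48 h and 14 at 96 h. Their sum was 662, 1072 and 718 CPM in vehicle, 258, 407 and 275 CPM at 48 h and 502, 287, 415 and 268 CPM at 96 h. The 16 became 4 with TP08 left out, 7 with TP09 or TP12 and 1 without both older animals, and the 14 became 5 with TP09 left out and 9 with TP11, TP16, TP17 or TP18. Nearest FAM46A on chromosome 4, a tract of 20 loci summed to 52.7 ± 4.3 CPM in vehicle, 26.3 ± 1.9 CPM at 48 h and 26.6 ± 6.6 CPM at 96 h, with 11 and 13 called lower; the 11 became 2 with TP08 left out, 4 with TP07, TP09, TP11 or TP12 and 5 with TP10, the 13 became 5 with TP07 left out, 6 with TP11 and 8 with TP09, TP16, TP17 or TP18, and without both older animals they were 0 and 2.

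Other tracts had calls at 48 h and none at 96 h. In the LOC106996755 locus on chromosome 2 (chr2:26837699-26995085, plus strand), 12 loci summed to 23.1 ± 0.9 CPM in vehicle, 9.03 ± 3.28 CPM at 48 h and 20.9 ± 2.0 CPM at 96 h, with 8 called lower at 48 h and 0 at 96 h (2 lower at 48 h with TP08, TP12 or TP11 left out, 4 with TP09, 5 with TP07 and 1 without both older animals). XLOC_005798 within it stood at 2.01, 3.31 and 1.87 CPM, then 0.641, 0.397 and 0.518 CPM, then 1.98, 1.99, 1.42 and 2.35 CPM; its fall of 2.19 ± 0.33 (adjusted p = 0.00224) and the rise of 1.89 ± 0.31 from 48 to 96 h (adjusted p = 0.0243) both passed. Beside MACC1 on chromosome 3, 8 of 8 loci fell at 48 h, from 23.1 ± 6.2 to 7.59 ± 2.17 CPM, and stood at 14.4 ± 3.0 CPM at 96 h with 0 called (2 of 8 at 48 h with TP08 or TP09 left out, 3 with TP12 and 1 without both older animals). Between 48 and 96 h, 0 of these 8 loci and 1 of the 12 in the chromosome 2 tract were called. XLOC_069405 and XLOC_069409, on unplaced scaffolds, rose by 2.17 ± 0.36 and 2.40 ± 0.40 from 48 to 96 h (adjusted p = 0.0243 and 0.0248) after falls of 1.55 and 1.56 at 48 h. XLOC_041818 on chromosome 12 rose from 0.411 ± 0.120 to 1.64 ± 0.71 CPM over the same interval (adjusted p = 0.0441), and XLOC_023556 on chromosome 6 was the single locus lower at 96 h than at 48 h, at 0.753 ± 0.064 against 1.65 ± 0.36 CPM (adjusted p = 0.0488). The call for XLOC_023556 was lost in 15 alternatives and that for XLOC_041818 in 13.

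Tracts with rises called at 96 h and none at 48 h included one nearest LOC710877 on chromosome 8 (chr8:23918332-24148732, plus strand), where 11 of 22 loci were higher at 96 h and the sum was 92.2 ± 10.2 CPM in vehicle, 128 ± 16 CPM at 48 h and 169 ± 58 CPM at 96 h, with every 48 h animal above every vehicle animal, and a tract on chromosome 7 (chr7:71942107-72049458, plus strand), where 7 of 13 were higher at 96 h and the sum was 25.1 ± 5.4, 25.8 ± 16.6 and 66.0 ± 24.0 CPM. The 11 became 0 with TP07 left out, 3 with TP09, 4 with TP11, 6 with TP16, TP17 or TP18 and 7 with TP12, and the 7 became 0 with TP07, TP09 or TP11 left out, 1 with TP16 or TP17 and 4 with TP12. Between 48 and 96 h, 0 loci of either tract were called.

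**Figure D4:**
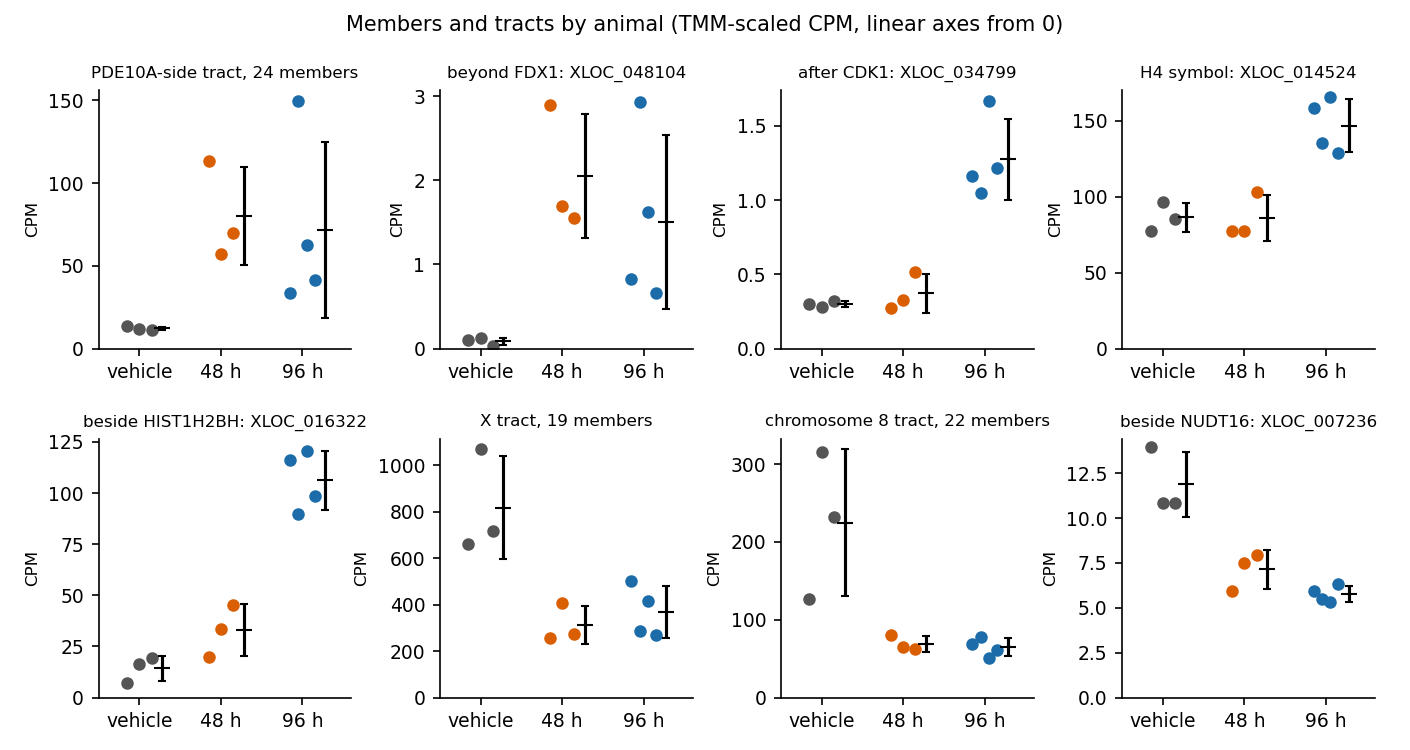
Level (CPM, TMM-scaled, linear axes from 0) of 5 single-exon loci and of 3 summed tracts in each animal, with the group mean and SD at the side. The PDE10A-side tract and XLOC_048104 are higher at both times, XLOC_034799, XLOC_014524 and XLOC_016322 are high in the 96 h animals, and the X and chromosome 8 tracts and XLOC_007236 are lower in treated animals.

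A set of regions was many-fold higher in some animals than in others of the same group. By a rule chosen after values were seen (a gap of at least 8-fold between animals, with 2 or more on each side), 78 of the 6923 loci (1.13%) were of this kind, against 0.395% of all loci and 24 of 18652 named loci. Of the 78, 55 fell in 3 regions. On chromosome 6 (chr6:162437763-164853455, plus strand), 159 loci summed to 1411, 1128, 1105 and 957 CPM in TP09, TP11, TP17 and TP18 and to 50.9 to 91.2 CPM in the other 6 animals, and in 158 of the 159 the lowest of the 4 was above the highest of the 6. Of the 159, 34 met the rule that set the 4 high animals, so the split of those 34 was fixed by the rule. On chromosome 9 (chr9:74763924-75383287, plus strand), 51 loci summed to 263, 295, 117 and 203 CPM in TP07, TP11, TP15 and TP17 and to 5.16 to 7.89 CPM in the other 6, while the neighbouring gene IPMK stood at 22.1 to 30.8 CPM in all 10. On chromosome 1 (chr1:194581631-194796825, minus strand), 5 loci summed to 22.2 to 84.8 CPM in 7 animals and 0.325 to 0.666 CPM in TP10, TP12 and TP18. The rule was met by 17 of the 51 loci on chromosome 9 and 4 of the 5 on chromosome 1, so the split of those was fixed by it too. Named loci within these regions split between the same animals: the LOC100428378 locus on chromosome 6 stood at 57.1 to 78.4 against 4.99 to 9.98 CPM, LOC107000204 on chromosome 9 at 6.54 to 11.8 against 0.270 to 1.08 CPM, and the locus of LOC106994704 on chromosome 1 at 27.0 to 87.1 against 0.431 to 0.744 CPM. High and low animals occur within the vehicle and 96 h groups for the chromosome 6 and 9 regions, and all 3 of the 48 h animals are low there. In these regions 5 loci on chromosome 6 and 1 on chromosome 9 were called lower at 48 h, where all 3 animals are low. They include XLOC_023092 at -5.91 ± 1.62 (adjusted p = 0.0424), XLOC_023051 at -4.60 ± 1.30 (adjusted p = 0.0474) and XLOC_033273 at -5.79 ± 1.59 (adjusted p = 0.0431).

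**Figure D5:**
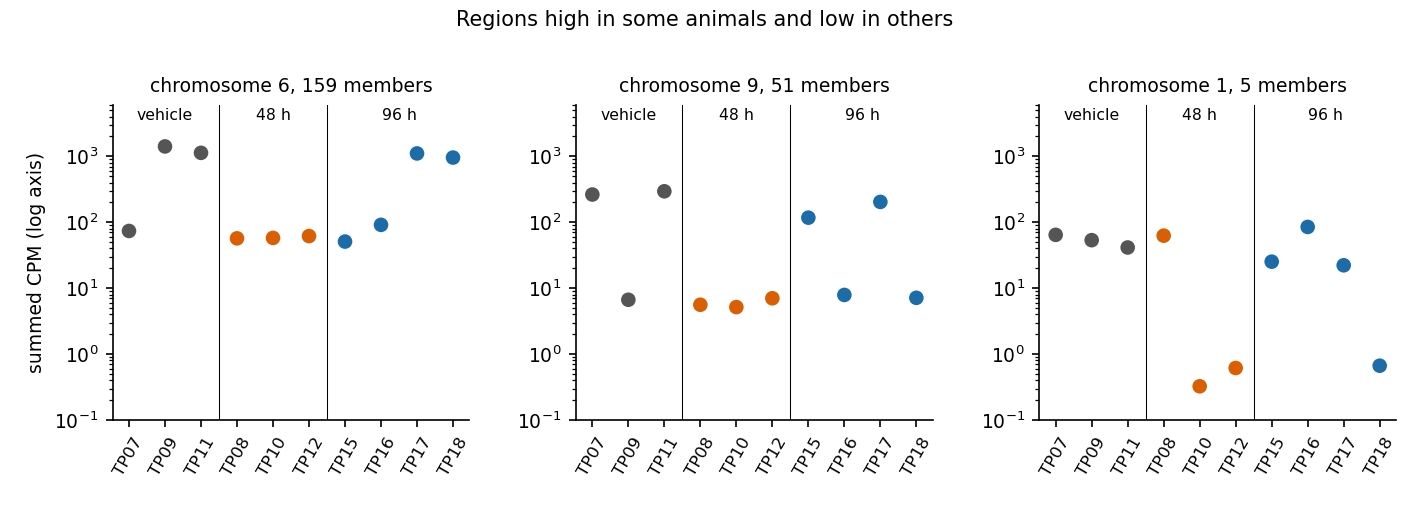
Summed level (CPM, log axis) of the single-exon loci in 3 regions, for each animal, with vertical lines separating the vehicle, 48 h and 96 h groups. On chromosome 6 the animals TP09, TP11, TP17 and TP18 stand at 957 to 1411 CPM and the other 6 at 50.9 to 91.2 CPM.

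Single loci showed similar splits. XLOC_072351, 1580 bases on an unplaced scaffold, stood at 8.06, 7.62 and 15.2 CPM in vehicle, 0, 0 and 0.259 CPM at 48 h and 0, 12.6, 5.82 and 9.05 CPM at 96 h. Its fall at 48 h was called (log2 -6.77 ± 1.57, adjusted p = 0.0221), with 907 counts in vehicle and 8 at 48 h, but TP15 of the 96 h group was at 0 as well. A further 8 loci were high only in TP10 and TP17. They summed to 3648 CPM in TP10 and 2348 CPM in TP17, to 21.7 CPM in TP09 and to at most 3.72 CPM in each other animal, and 5 of the 8 lay on unplaced scaffolds. XLOC_074182 alone was at 1972 CPM in TP10 and 633 CPM in TP17, and was not called (adjusted p = 0.332 at 48 h and 0.39 at 96 h). TP10 and TP17 also had the lowest shares of mitochondrial counts, 1.37% and 1.91%, against 2.40% to 3.09% in the others. Without TP10 and TP17 the falls numbered 251 at 48 h and 208 at 96 h, the rises 36 and 81, and 0 loci differed between 48 and 96 h.

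The remaining named falls stood between distant genes. XLOC_018672 (chr5:73883846-73888790, plus strand), 501336 bases from ADGRL3, fell from 2.35 ± 0.70 to 0.360 ± 0.289 CPM at 48 h and 0.346 ± 0.342 CPM at 96 h (log2 -2.70 ± 0.72 and -2.78 ± 0.67, adjusted p = 0.0336 and 0.019). XLOC_056560 on chromosome 17 (chr17:70237633-70242770, plus strand) fell at 96 h from 3.56 ± 1.18 to 0.475 ± 0.521 CPM (log2 -2.82 ± 0.77, adjusted p = 0.0334), with 0 and 0.0506 CPM in TP15 and TP17 and 0.868 and 0.980 CPM in TP16 and TP18.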

How the data were processed

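Right testes of 10 animals were sequenced as stranded total RNA. Per the submitters' processing notes, the tools were cutadapt 1.9.1, TopHat2 (2.1.1), Bowtie2 (2.2.8), the Cufflinks suite (2.2.1), HTSeq (0.6.1p1) and edgeR, on rheMac8; settings are not given in the sources used here. The authors deposited raw counts per assembled locus, with merged transcript models. The same deposited table holds the authors' CPM (not used), their log2 fold changes (not used) and their FDR values from edgeR, per the file headers. By those FDR values, the authors' deposited table has 58 of the single-exon loci higher and 524 lower at 48 h, and 164 higher and 360 lower at 96 h, both against vehicle, and 182 higher and 19 lower at 96 h against 48 h. A second deposited table gave symbols only. Members, lists and tests were chosen with earlier results of these data known.

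Counts were fitted with edgeR 4.0.16 (TMM, robust quasi-likelihood, all 10 animals, Benjamini-Hochberg adjustment over 26813 loci). CPM are TMM-scaled. Log2 ratios of a locus to its named locus, each plus 0.5 counts, were fitted with limma 3.58.1. In a table of 26813 loci simulated for 48 h against vehicle, edgeR recovered 26% of 2-fold and 98% of 4-fold changes, and 8.15% of its calls were false. On 3390 simulated ratios, limma recovered 88% of 4-fold changes. Changes were planted only in loci above 1 CPM, of any kind, and all loci shared 1 spread between animals. Of the single-exon loci, 78.0% reached 1 CPM and the median was 1.47 CPM, so recovery among them was not measured. Chromosome numbers were assigned to the deposited sequence names by the gene symbols shared with a RefSeq table; coordinates are those deposited. Spans were compared with named loci in the models, with a window of 5 kb. The p-values measure the spread between animals.

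Loci were named by rule: per comparison and class (inside, antisense, between), the 2 largest called rises and falls without overlap between animals whose average log2 CPM reached 0; the 3 most abundant per class; the 2 largest called ratio rises and falls; and up to 2 overlapping each gene list. Loci near listed genes were added by distance, divergent examples by p or abundance, and tracts, regions and loci so described after values were seen. Alternatives covered scaling, filter, DESeq2 1.42.0, exactTest, age, animals, pseudocount and windows. Replicate libraries differed beyond sampling noise (chi-square per degree of freedom 15.8 to 49.6). No genome sequence was used here.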

Additional observations from a re-analysis of the deposited data

Results flagged for a closer look

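In the 96 h group of 4 animals, the share of counts by position and the level of each named locus were searched for an animal far from the rest. Of 58 values, 3 stood apart, and chance flags about 1 in 20 groups. XLOC_017887, in the second tract beyond PDE10A, was at 13.1 CPM in TP16 and 4.82 to 5.97 CPM in the other animals. XLOC_023556 was at 0.658 CPM in TP17 and 0.775 to 0.796 CPM in the others. XLOC_074182 was at 633 CPM in TP17 and at most 0.109 CPM in the others. It is among the 8 loci picked above as high only in TP10 and TP17, so its flag is not independent of that choice.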

How the results depend on the processing

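Low counts limit most of these loci. Numbers of called loci that moved by over 1.5 times are given here, and the cause was not tested. At 48 h, rises were 27 with a mean count of at least 50 and 9 without both animals over 20 months; falls were 642 by DESeq2, 593 by exactTest and 44 without both older animals. At 96 h, rises were 245 by DESeq2, 72 with age as a covariate, 66 with a mean count of at least 50, 94 with upper-quartile scaling, 81 without TP10 and TP17 and 44 without both older animals; falls were 201 with age, 246 with a mean count of at least 50, 648 with upper-quartile scaling, 208 without TP10 and TP17 and 111 without both older animals. Upper-quartile scaling gave all loci a median of -0.20 at 48 h, in place of -0.07, and -0.16 at 96 h, in place of -0.01. The share of rises among called single-exon loci at 96 h went from 27.4% to 12.7%. From 48 to 96 h, rises were 265 by DESeq2, 133 by exactTest, 7 with age, 11 with the compared groups alone and 0 without TP10 and TP17 or without both older animals; falls were 45 by DESeq2, 29 by exactTest, 2 with a mean count of at least 50 and 0 with the groups alone, upper-quartile scaling, without TP10 and TP17 or without both older animals.

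Loci apart from the named locus on their strand were, at 48 h, 5 with mean counts of at least 50, 2 with voom weights and 0 without both older animals; at 96 h, 5, 4, 13 without TP10 and TP17 and 10 without both older animals; from 48 to 96 h, 2 with mean counts of at least 50. On the opposite strand they were 3 without TP10 and TP17 and 0 without both older animals at 48 h; at 96 h, 18 with age, 17 with mean counts of at least 50, 15 without TP10 and TP17 and 12 without both older animals; from 48 to 96 h, 3 with a pseudocount of 5 and 0 with age, with mean counts of at least 50 and in both sets without animals.

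With each animal left out in turn, rises and falls ranged from 29 to 58 and 77 to 337 at 48 h, 53 to 173 and 137 to 422 at 96 h, and 0 to 20 and 0 to 9 from 48 to 96 h. Loci apart from the named locus ranged on the same strand from 2 to 15, 10 to 27 and 0 to 7, and on the opposite strand from 3 to 13, 14 to 37 and 0 to 1. Of 914 alternatives for 47 results of named loci, 0 reversed and 205 lost the call, 31 of them without both older animals. In vehicle, at 48 h and at 96 h, the share of counts was 2.41%, 1.80% and 2.09% without the 10 most abundant loci. Against annotated transcripts alone it was 0% inside in each group, 0.0212%, 0.0174% and 0.0152% antisense and 4.64%, 3.78% and 4.34% between. With whole exons inside the span it was 0.00921%, 0.00738% and 0.00681% antisense and 4.04%, 3.37% and 3.81% between. After a named end it was 0.197%, 0.144% and 0.180% within 1 kb, and 1.40% at 48 h within 10 kb. Entering each pair once left all 6 counts against the named locus within 1.5 times. No paired analysis was possible because the replicate numbers are animal numbers and no number occurs in more than 1 group.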
